A study of Mus musculus with 2 samples.

Results

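The genes of the unfolded protein and amino acid stress response were examined in RNA from Lats2 knockout and wild type mouse embryonic fibroblasts (MEFs). The set was a list of 34 genes chosen by name for their place in this response, with earlier results of these data known. Of these, 32 had a probe under their own name and 31 gave a ratio on both arrays, out of 27579 gene names on the array. All but Derl3 of the 31 were well above background, in both RNAs and on both arrays, which left 30 members to be read beside 15877 gene names of the whole array that passed this signal limit in 1 RNA or both.

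Proteins that are secreted or inserted into membranes fold in the endoplasmic reticulum (ER). When unfolded proteins gather there, the membrane sensors PERK, IRE1 and ATF6 set off the unfolded protein response. PERK phosphorylates the translation factor eIF2, which lowers protein synthesis in general but favors translation of the transcription factor ATF4. IRE1 splices the mRNA of XBP1, and ATF6 is cut to release its own transcription factor, and both of these raise chaperones and the ER-associated degradation (ERAD) machinery. A shortage of amino acids reaches the same ATF4 step through the kinase GCN2, so that ATF4 targets include genes for amino acid synthesis and tRNA charging. Fibroblasts secrete large amounts of collagen and fibronectin, and the chaperones of the ER are abundant in them.

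Both RNAs came from embryonic fibroblasts of C57BL/6J mice without treatment, LATS2+/+ for WT and LATS2-/- for KO (written LAT2-/- in some label fields). LATS2 is a kinase of the Hippo pathway, which holds back the coactivators YAP and TAZ. The RNAs were labeled with the dyes Cy5 and Cy3 and hybridized together to 2 Agilent whole mouse genome arrays, with KO in Cy5 on array 1 and in Cy3 on array 2. The arrays were counted as 1 replicate, a technical dye swap, and the embryo age, the passage and the number of embryos behind each RNA are not given in the sources used here. The ratios below are log2 of KO over WT, given as the mean of both arrays with the value of array 1 and then array 2 behind it, and no test of genotype was possible.

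In RNA, the targeted gene went against the labels: 3 of the 4 Lats2 probes read higher in the RNA labeled KO, the brightest of them at 0.56 (0.52 and 0.60), and the fourth read -0.35. Which part of the transcript the allele removes is not given in the sources used here, so whether these probes lie inside it was not checked, and each direction below rests on the labels. For protein, which arrays do not measure, the paper reports a western blot as evidence of the knockout in its Lats2 KO MEFs. Of 12 fibroblast markers, 11 had a usable value, with a median ratio of -0.41 (-0.30 on array 1 and -0.44 on array 2). All of these were well above background in KO or WT, and 10 in both. Of these markers 8 were below 0, and they ranged from -0.89 (Vim) to 0.89 (Fn1) by their brightest probes. The single Vim probe was dim, at log2 levels of 6.23 and 6.31 in KO and 7.02 and 7.28 in WT. In KO it was well above background on only 1 array. The 4 probes of Fn1 read 0.27 to 0.99. The summed normalized intensity of the 11 fibroblast markers was 142081 and 134515 units in KO and 164005 and 170795 in WT. Of 33 measured markers of 7 other cell types, 9 were well above background. The epithelial list summed to 647 and 573 units in KO and 366 and 338 in WT through Krt19 alone, with Cdh1 not above background. The macrophage list summed to 547 and 550 in KO and 745 and 739 in WT, with Ptprc not above background. In it Cd14 read -1.05, while Cd68 read 0.14 and Csf1r -0.05. The muscle list had the largest sum of these 7, with 12326 and 12401 in KO and 10118 and 10253 in WT. Of its markers Acta1 read 0.26, and Tnnt2 read 0.66 by its brightest probe but -0.10 by the other one. Myod1, Myog and Des were not above background. The part of other cell types in the results below was not tested, and fewer cells of a type cannot be told apart from less RNA per cell.

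Of the 30 members, 4 were at least 2-fold lower in the RNA labeled KO on each array (13.3%), namely Trib3, Nupr1, Herpud1 and Chac1, where 2.61% of all gene names were. None was at least 2-fold higher, against 2.95% of all gene names. With a limit of 1.5-fold on each array, 8 members were lower (26.7%), with Sdf2l1, Asns, Atf4 and Psat1 added, against 7.17% of all gene names, and none was higher against 7.04%. With each array only centered on its median, without correction of intensity-dependent dye bias, 1 member passed the 2-fold and 2 passed the 1.5-fold limit downward, as did 138 and 342 of all gene names. The median ratio of the 30 members was -0.25 (-0.34 on array 1 and -0.22 on array 2), and that of all gene names well above background was -0.00369. Ratios were below 0 on both arrays for 21 members (70%) and for 41.4% of all gene names. The SD between arrays of a single ratio was 0.137 over all usable probes well above background in both RNAs. By more than this SD on each array, 16 members were lower (53.3%), against 27.6% of all gene names. Higher by more than the SD were 4 members (13.3%), Vldlr, Pdia6, Atf3 and Dnajb9, against 26.2% of all gene names. The other 10 members lay within the SD of 0 on at least 1 array. Because the list was drawn up with earlier results of these data known, these shares describe it and are no test.

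The roles differed in their ratios. The 5 amino acid and output genes had a median of -0.75, the 8 sensors and transcription factors -0.28, the 4 measured ERAD members -0.26, the 4 protein disulfide isomerases -0.19 and the 8 measured chaperones -0.16. Each role also held at least 1 member near 0 or above it, apart from the feedback regulators, of which Trib3 alone had a value under its own name. The plot of ratios on each array shows this spread within roles.

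**Figure D1:**
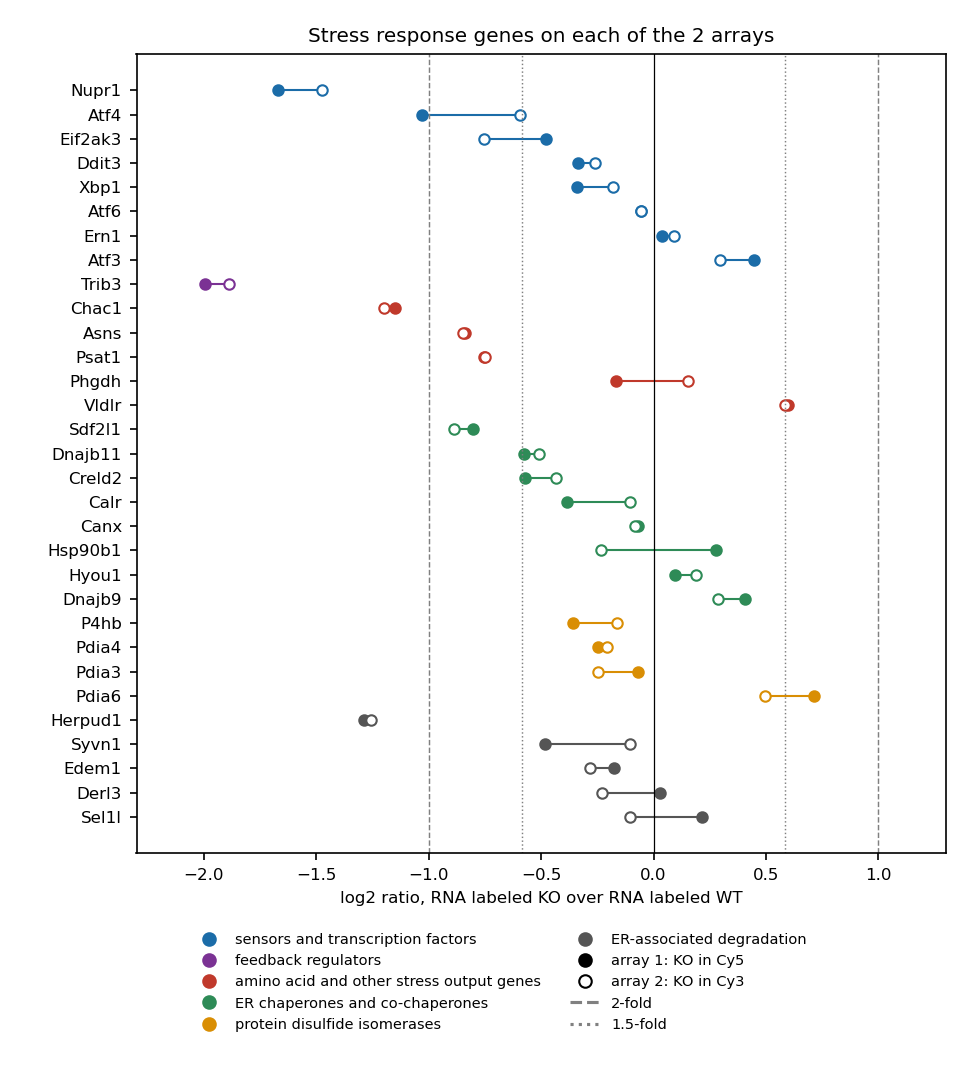
Log2 ratio of the RNA labeled KO over the RNA labeled WT (x axis) for the 31 members with a value on both arrays, grouped by role (color), with array 1 as filled and array 2 as open circles. Trib3, Nupr1, Herpud1 and Chac1 lie beyond the 2-fold line on both arrays, no member lies beyond it on the higher side, and Derl3 is not well above background.

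Some members hold known stress elements in their promoters, and 15 of the 32 members with a promoter to search hold none of those searched. The genes were chosen for their place in the response that these elements serve, so shares above those of all promoters are no independent result. Promoters of 300 bases, 250 before and 50 after the annotated start, were taken from RefSeq (GRCm38.p6) for these 32 members and searched on both strands. They are not the same 32 as those with a probe under their own name. Dnajc3 and Ppp1r15a were searched, while Atf6 and Hyou1 had no promoter in the set used and were not. The ER stress element (ERSE, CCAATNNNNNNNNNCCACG), which ATF6 and NF-Y bind, was in 9 of the 32 member genes (28.1%) and in 0.119% of all 32851 promoters. ERSE-II (ATTGGNCCACG), which ATF6 and XBP1 use, was in 2 (Herpud1 and Dnajb11) and in 0.0365% of all promoters. The core of the C/EBP-ATF response element (CARE, TGATGNAA), which ATF4 binds together with C/EBP factors, was in 7 members (21.9%) and in 3.97% of all promoters. In 5 of these 7 the match was TGATGCAA, a form within TGATGNAA that 0.895% of all promoters hold. ERSE and ERSE-II differ in the spacing and orientation of their conserved ends, and no member held both.

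The 250 bases before the start are printed for 6 members, chosen because they hold the same elements with different ratios, apart from Hspa5, which has no ratio on both arrays. Nupr1, Herpud1 and Chac1 were lower in KO. Atf3 and Vldlr hold the identical 8 bases and were higher, and of these Atf3 is printed. Hspa5 is the gene in which ERSE is best known, and Pdia6 holds ERSE with the highest member ratio. Capitals mark the fixed letters of ERSE and ERSE-II and all 8 letters of the CARE core, which lies on the opposite strand here and so reads TTGCATCA.
Nupr1 (chr7:126625471-126625720, minus strand): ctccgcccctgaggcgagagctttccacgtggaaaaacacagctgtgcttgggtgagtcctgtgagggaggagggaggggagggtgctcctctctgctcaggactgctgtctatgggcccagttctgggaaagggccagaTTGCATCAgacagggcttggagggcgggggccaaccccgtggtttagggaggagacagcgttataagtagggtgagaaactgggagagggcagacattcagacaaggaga
Herpud1 (chr8:94386179-94386428, plus strand): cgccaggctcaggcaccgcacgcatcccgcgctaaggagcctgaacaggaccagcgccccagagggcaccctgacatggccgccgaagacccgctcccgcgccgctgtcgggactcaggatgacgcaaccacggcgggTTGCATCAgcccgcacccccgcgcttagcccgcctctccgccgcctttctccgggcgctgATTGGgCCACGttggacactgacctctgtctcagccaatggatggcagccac
Chac1 (chr2:119350992-119351241, plus strand): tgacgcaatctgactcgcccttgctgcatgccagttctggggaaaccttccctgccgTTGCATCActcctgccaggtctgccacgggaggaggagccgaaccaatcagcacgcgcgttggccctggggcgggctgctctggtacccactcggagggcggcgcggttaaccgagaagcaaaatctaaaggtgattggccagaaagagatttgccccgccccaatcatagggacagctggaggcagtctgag
Atf3 (chr1:191183334-191183583, minus strand): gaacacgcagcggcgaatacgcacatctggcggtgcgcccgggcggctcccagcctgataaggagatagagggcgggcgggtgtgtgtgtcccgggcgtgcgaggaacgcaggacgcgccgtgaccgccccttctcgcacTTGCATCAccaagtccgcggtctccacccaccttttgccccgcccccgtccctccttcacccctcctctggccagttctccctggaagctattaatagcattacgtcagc
Hspa5 (chr2:34771840-34772089, plus strand): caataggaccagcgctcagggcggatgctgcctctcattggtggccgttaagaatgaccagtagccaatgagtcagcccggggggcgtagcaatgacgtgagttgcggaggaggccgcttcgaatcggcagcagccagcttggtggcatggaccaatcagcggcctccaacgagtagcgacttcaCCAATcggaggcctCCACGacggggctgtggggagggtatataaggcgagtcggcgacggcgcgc
Pdia6 (chr12:17266339-17266588, plus strand): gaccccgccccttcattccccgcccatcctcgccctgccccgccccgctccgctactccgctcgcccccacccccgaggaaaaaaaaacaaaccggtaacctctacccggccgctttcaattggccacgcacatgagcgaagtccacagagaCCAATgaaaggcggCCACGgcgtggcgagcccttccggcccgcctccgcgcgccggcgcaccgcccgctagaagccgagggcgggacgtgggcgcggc

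In Nupr1 and Atf3 the CARE core spanned the same positions, -110 to -103 from the start. It lay at -112 to -105 in Herpud1, -193 to -186 in Chac1, -200 to -193 in Vldlr and -23 to -16 in Asns (as TGATGAAA), and in Trib3 after the start, at 15 to 22 (as TTACATCA). The 7 members with this core had a median ratio of -1.17, from -1.94 (Trib3) to 0.59 (Vldlr), and included the 4 members lower by 2-fold as well as 2 of the 4 that were higher by more than the SD. The 6 measured members with ERSE had a median of -0.16, from -0.50 (Creld2) to 0.61 (Pdia6). The 14 measured members with none of these letters in the window had a median of -0.24. A match is a description of the letters and no evidence of binding in these cells, and no match says nothing about the factor.

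**Figure D2:**
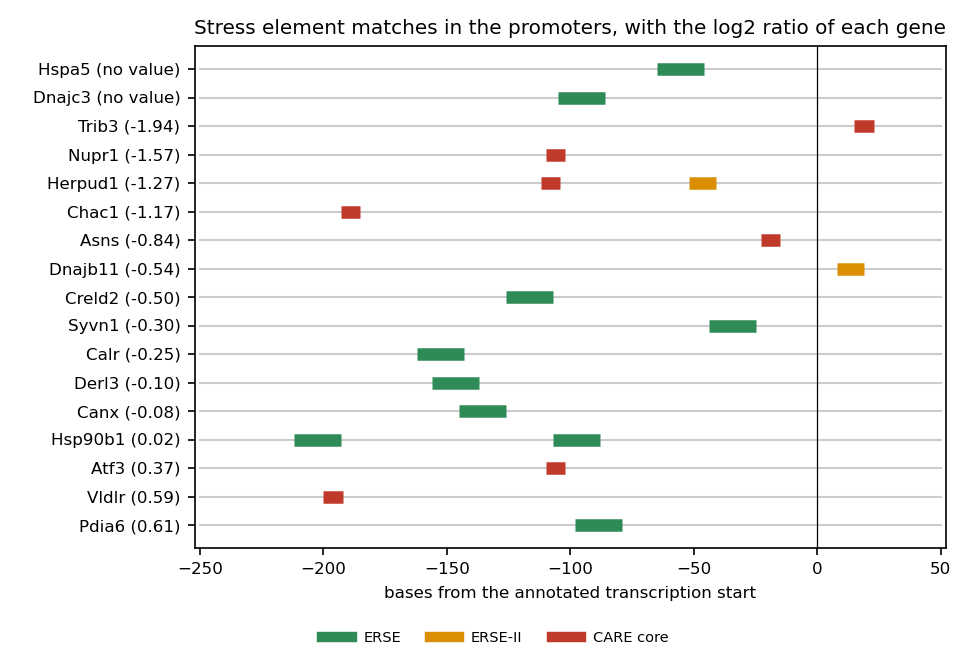
Positions of ERSE, ERSE-II and CARE core matches (colored bars) in bases from the annotated transcription start (x axis) in the 17 member promoters that hold one, with the mean log2 ratio of KO over WT behind each name. CARE cores accompany ratios from -1.94 to 0.59 and ERSE ratios from -0.50 to 0.61 (well above background), and Hspa5 and Dnajc3 have no ratio under their own name on both arrays.

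Among the sensors, only Eif2ak3, which encodes PERK, differed from 0 by more than the SD between arrays on both. Its ratio was -0.62 (-0.48 and -0.76), with normalized intensities of 700 and 580 units in KO and 974 and 980 in WT. A second, dimmer probe of Eif2ak3 gave -0.18, so the size of this difference rests on the probe. Ern1, which encodes IRE1, read 0.06 (0.04 and 0.09) and Atf6 read -0.06 on both arrays. The RNA levels of these sensors do not report their activity, which is set by phosphorylation, splicing and cleavage.

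Atf4, the transcription factor at the center of the amino acid response, had a ratio of -0.81, but the arrays differed. It read -1.03 on array 1, with 2029 units in KO and 4148 in WT, and -0.59 on array 2, with 2308 in KO and 3479 in WT. Both KO values lay below both WT values, the SD between arrays was 0.311, and the 1.5-fold limit (0.58 in log2) was only just passed on array 2. Atf4 is controlled largely in translation, which arrays do not measure. Its single probe was at chromosome 15, 80083904-80083963 (NCBI36, mm8, as are all probe coordinates here).

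Nupr1, a small nuclear protein induced by many stresses and known as a target of ATF4, had the second lowest member ratio. Its intensities were 4252 and 4124 units in KO and 13552 and 11466 in WT, a ratio of -1.57 (-1.67 and -1.48), or 33.6% of the WT level (chromosome 7, 126414612-126414671). Ddit3, which encodes the pro-apoptotic factor CHOP and is another ATF4 target, read only -0.30 (-0.34 and -0.26). Xbp1 read -0.26 (-0.34 and -0.18), and whether its probe tells the spliced from the unspliced mRNA was not checked. Atf3, an early stress factor also induced by ATF4, lay the other way at 0.37 (0.44 and 0.30), with 408 and 401 units in KO and 299 and 326 in WT. The stress-induced factors downstream of ATF4 therefore did not share one direction.

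Trib3, a pseudokinase that binds ATF4 and CHOP and dampens their activity, had the lowest ratio of all members. Its brightest probe (chromosome 2, 152029060-152029119) gave 532 and 537 units in KO and 2124 and 1991 in WT, so that KO held 26.0% of the WT level, a ratio of -1.94 (-1.997 and -1.890). The second probe of Trib3, dimmer in both RNAs, gave -1.09 (-1.21 and -0.97). Both probes were lower in KO on both arrays, and they disagreed on the size. The other feedback regulator, Ppp1r15a (GADD34), the phosphatase subunit that reverses eIF2 phosphorylation, was on the array under the older name Myd116 and was found through its RefSeq accession. It read -0.47, lower on both arrays but unequally (-0.72 and -0.21).

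Chac1, Asns and Psat1 were lower among the output genes, with little difference between arrays. Chac1, which degrades glutathione and is a sensitive ATF4 target, gave 1467 and 1465 units in KO and 3251 and 3364 in WT, a ratio of -1.17 (-1.15 and -1.20; chromosome 2, 119045695-119045754). Asns, asparagine synthetase, gave 12619 and 12563 in KO and 22576 and 22587 in WT, a ratio of -0.84 (-0.84 and -0.85; chromosome 6, 7625194-7625253). Psat1, the aminotransferase of serine synthesis, gave 3684 and 3786 in KO and 6218 and 6358 in WT, a ratio of -0.75 (-0.76 and -0.75; chromosome 19, 15972499-15972558). In all 3, the KO and WT intensities were far apart and each RNA gave nearly the same intensity in either dye after normalization.

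Phgdh, which catalyzes the step before Psat1 in serine synthesis, did not share its ratio. Its brightest probe read -0.01 with opposite signs on the arrays (-0.17 and 0.15), and its 2 other probes read 0.05 and 0.11. Vldlr, a lipoprotein receptor that is also induced through ATF4, was higher at 0.59 (0.60 and 0.58), with 486 and 470 units in KO and 320 and 314 in WT, and its second probe read 0.37. It missed the 1.5-fold limit on array 2 by under 0.01 in log2, so the statement that no member passed 1.5-fold upward rests on the limit chosen.

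**Figure D3:**
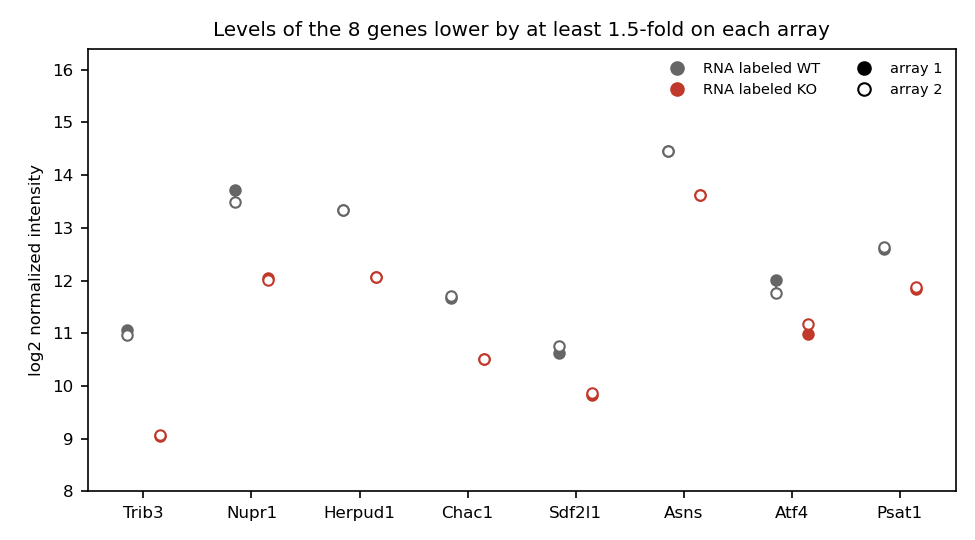
Log2 normalized intensity (y axis) of the 8 members that were lower by at least 1.5-fold on each array, in the RNA labeled WT (gray) and the RNA labeled KO (red) on array 1 (filled) and array 2 (open). The KO points lie below the WT points for each gene, with the widest gap for Trib3 and arrays that lie farthest apart for Atf4. Heights of different genes are not comparable.

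Of the 8 measured ER chaperones, Sdf2l1, Dnajb11 and Creld2 were lower and Dnajb9 was higher by more than the SD on both arrays, and the other 4 were not. Sdf2l1, a component of an ER chaperone complex, had 906 and 938 units in KO and 1580 and 1735 in WT, a ratio of -0.84 (-0.80 and -0.89; chromosome 16, 17043896-17043955). Dnajb11, a cochaperone of BiP, read -0.54 (-0.57 and -0.51), and Creld2, a small ER stress protein, read -0.50 (-0.57 and -0.44). For these 3 genes both KO intensities lay below both WT intensities.

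BiP, the central ER chaperone, is encoded by Hspa5, and its only probe was flagged as non-uniform on array 2. Array 1 alone gave -0.36. With the flagged spot kept, the arrays gave -0.39 and -0.04, which puts BiP RNA in KO at 86.0% of the WT level with little between the channels on array 2. Hsp90b1 (GRP94), its partner of the HSP90 family, read 0.02 with opposite signs on the arrays (0.28 and -0.23). A brighter Hsp90b1 probe was flagged on both arrays and would have read -0.44. Neither of these abundant chaperones thus had a ratio that both arrays gave alike.

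The lectin chaperones Calr (calreticulin), at -0.25 (-0.39 and -0.11), and Canx (calnexin), at -0.08 (-0.07 and -0.08), lay within the SD of 0 on at least 1 array. Their other probes read -0.42 for Calr and -0.30 and -0.01 for Canx. Hyou1, a large HSP70-like ER chaperone, read 0.14 (0.10 and 0.19), and its second probe was not above background. Dnajb9, a BiP cochaperone that is a classic XBP1 target, was higher at 0.35 (0.41 and 0.28), with 1461 and 1451 units in KO and 1102 and 1191 in WT, and its 2 other probes read 0.27 and 0.18. Dnajc3 (p58IPK), which restrains PERK, was listed on the array as Dnajc3a and its 4 probes read 0.18 to 0.32. The DNAJ cochaperones of BiP thus lay on both sides of 0.

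The protein disulfide isomerases, which form and rearrange disulfide bonds, differed among themselves, with P4hb and Pdia4 lower and Pdia6 higher by more than the SD on both arrays. P4hb, which is also a subunit of the collagen prolyl hydroxylase, read -0.26 (-0.36 and -0.16), Pdia4 -0.23 (-0.25 and -0.21) and Pdia3 -0.16 (-0.07 and -0.25). Pdia6, which binds BiP and attenuates the stress sensors, read 0.61 (0.71 and 0.50), with 5490 and 5305 units in KO and 3350 and 3756 in WT. It was the highest member ratio, and 2 dimmer Pdia6 probes gave 0.46 and 0.84. The brightest Pdia6 probe of all was flagged on array 1; it read 0.16 on array 2, and 0.04 on average with the flagged spot kept. Pdia6 was therefore higher in 3 of its 4 probes, and its ratio depended on which probe was used.

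Herpud1, a membrane protein that assembles the ERAD ubiquitin ligase and responds to both ATF4 and ATF6, stood apart from the rest of its role. It gave 4264 and 4314 units in KO and 10413 and 10298 in WT, 41.4% of the WT level and a ratio of -1.27 (-1.29 and -1.26; chromosome 8, 97284346-97284405). Syvn1 (HRD1), the ubiquitin ligase itself, read -0.30 (-0.48 and -0.11), with a dim second probe at -0.01. Edem1, the lectin that hands over misfolded glycoproteins, read -0.23 (-0.17 and -0.28), and its other probes -0.37 and -0.10. Sel1l, the adaptor of the ligase, read 0.06 with opposite signs on the arrays (0.22 and -0.10), and Derl3 was not well above background in either RNA.

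**Figure D4:**
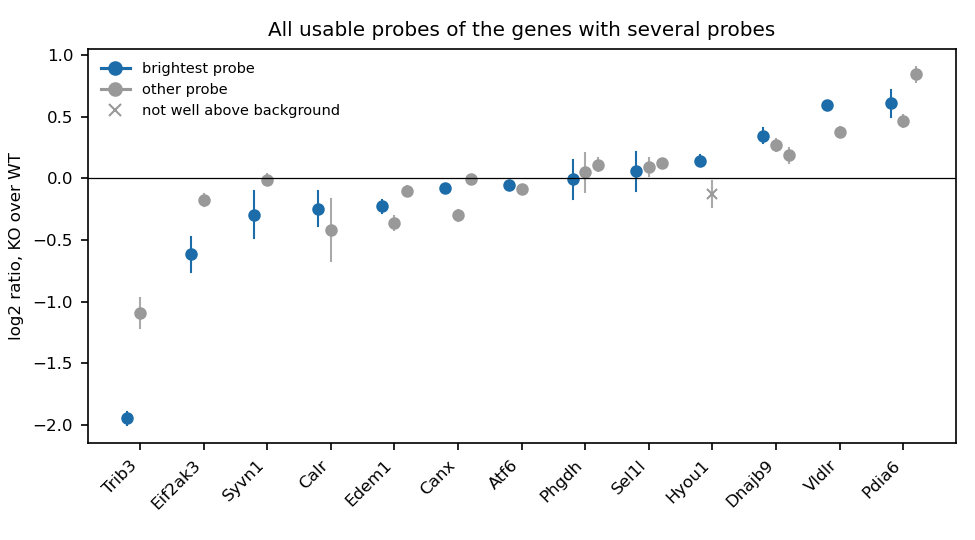
Mean log2 ratio of KO over WT (y axis) of each usable probe for the 13 members with several probes, the brightest in blue and the others in gray, with lines from array 1 to array 2 and a cross for a probe not well above background. Probes of Trib3 and Eif2ak3 differ in size but not in sign, and all 3 usable Pdia6 probes lie above 0.

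Of the 119 other names on the pathway lists, also chosen with earlier results of these data known, 103 were measured well above background. At 2-fold on each array 4 of these were lower (3.88%) and 2 were higher (1.94%), and at 1.5-fold 15 were lower (14.6%) and 3 higher (2.91%). Over all gene names these shares were 2.61% and 2.95% at 2-fold and 7.17% and 7.04% at 1.5-fold. Their median ratio was -0.19, and 59.2% were below 0 on both arrays, against 41.4% of all gene names. The ATF4-linked amino acid and one-carbon enzymes lay lowest, with a median of -0.47 over 14 genes and 4 of them lower by at least 1.5-fold. Aldh1l2, a mitochondrial folate enzyme, read -2.37 (-2.56 and -2.18), with a second probe at -0.91. Gpt2, mitochondrial alanine aminotransferase, read -1.15 (-1.06 and -1.24). Pycr1, of proline synthesis, and Pck2, the mitochondrial PEP carboxykinase, were among the 1.5-fold lower genes at -0.96 and -0.84.

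Among 23 other stress sensors, kinases and factors (median -0.18), Atf5, a close relative of ATF4, read -1.75 (-1.76 and -1.74). Ddit4 (REDD1), an inhibitor of the growth kinase mTORC1, read -1.61 (-1.34 and -1.87). Cebpg, a C/EBP partner of ATF4, and Creb3l3, an ER-anchored transcription factor, were lower by at least 1.5-fold at -0.86 and -0.80, but the 3 probes of Cebpg reached up to -0.07. Tnfrsf10b, the TRAIL death receptor and a CHOP target, was at least 2-fold higher on each array at 1.04 (1.001 and 1.080). The genes of this list thus included large ratios of both signs.

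The 20 cytosolic tRNA synthetases had a median of -0.05 and did not lie on one side. Aars, Nars, Tars and Cars, for alanine, asparagine, threonine and cysteine, were lower by at least 1.5-fold at -1.03, -0.76, -0.74 and -0.68 by their brightest probes, and the 5 probes of Aars reached up to -0.11. Wars, for tryptophan, was higher at 0.89, and Hars, for histidine, at 1.17 by its brightest probe but -0.25 by the other one. The larger lists of ER folding and ERAD genes stayed within 2-fold. Of 30 ER folding genes (median -0.18), 2 were lower by 1.5-fold, the prolyl isomerase Fkbp2 at -0.83 and the translocon subunit Sec61b at -0.62, and the signal peptidase subunit Spcs3 was the highest at 0.60. Of 16 ERAD genes (median -0.23), Derl1, a channel component, was lower at -0.81 and Man1b1, which trims mannose, was the highest at 0.36.

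**Figure D5:**
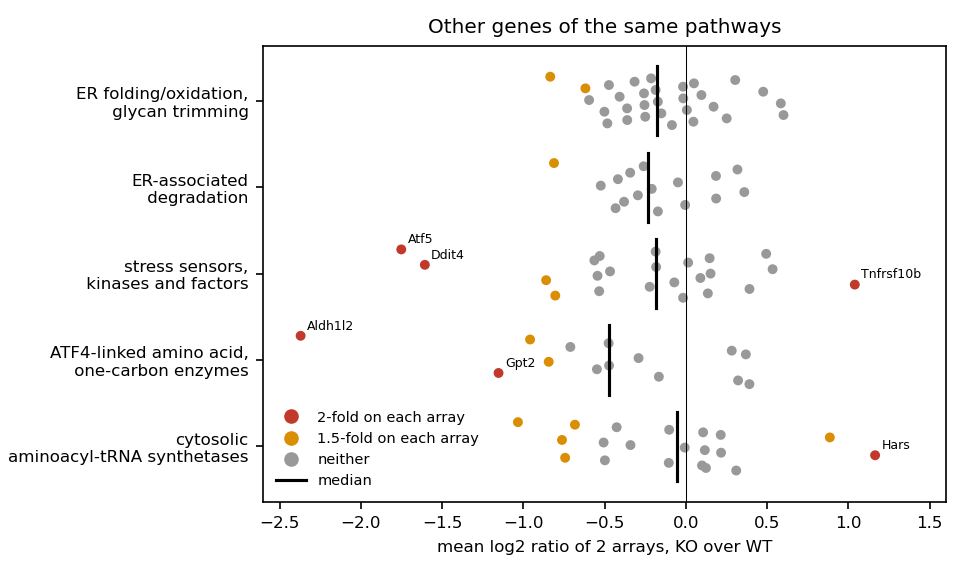
Mean log2 ratio of KO over WT (x axis) for 103 other genes of the pathways, one point a gene, by list (y axis, with scatter within a list only for legibility), with those past 2-fold on each array in red and named, those past 1.5-fold in orange, and medians as black bars. The enzymes linked to ATF4 have the lowest median, -0.47, and the ER folding and ERAD lists hold no gene past 2-fold.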

How the data were processed

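Per the file headers, the arrays were read with Agilent Feature Extraction 10.5.1.1, and the deposited files give each spot's mean signal and local background as intensity, together with the software's log10 ratio of Cy5 over Cy3. A log2 ratio table by the authors, also deposited, when set against the scanner values ran as KO over WT on both arrays. These served as alternatives.

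Intensities were background corrected (normexp, offset 50) and loess normalized within each array in limma 3.58.1 (R 4.3.3), without 1639 control spots of 45018 and without 390 and 378 spots with outlier flags. No spot was saturated. The offset pulls ratios of dim probes toward 0. For the intensities given for each RNA, the mean of both dyes was also set to the same distribution on the 2 arrays (Aquantile in limma). Likeness of these intensities between arrays and dyes is therefore partly a result of normalization. Spots of a probe were averaged, array 2 was turned, and the brightest probe stood for a gene. A gene was counted when it passed 2-fold or 1.5-fold in one direction on each array and was well above background on both arrays in the RNA where it was higher. The number of arrays, 2 on 1 slide, limits the precision, and with the arrays counted as 1 replicate no p-value is given.

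All members were named, with, of the other lists, genes past 2-fold and, for lists without one, the highest and the lowest. The further genes past 1.5-fold (Aars, Nars, Tars, Cars, Wars, Cebpg, Creb3l3, Pycr1, Pck2, Sec61b) were named after their values were seen. The members and lists were chosen with earlier results of these data known. Motifs were searched and plots drawn with Python 3.11.15, pandas 2.3.3 and matplotlib 3.10.9. The alternatives were other background and scaling steps, all probes of a gene, flagged spots kept, each array alone, limma and the methods' t-test.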

Additional observations from a re-analysis of the deposited data

How the results depend on the processing

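The 4 members lower by 2-fold and the 8 lower by 1.5-fold remained the same genes under each change of background, scaling, probe or flag handling except median centring, which leaves intensity-dependent dye bias in place. It gave 1 (Trib3) and 2 (Nupr1 and Trib3), while the count over all gene names dropped from 414 to 138 and from 1139 to 342, and the correlation between arrays from 0.945 to 0.526. The count of members higher by 1.5-fold went from 0 to 1 with Feature Extraction's ratio, the deposited table, an offset of 10 and no background subtraction (Vldlr in each), and with the mean over all probes (Pdia6). On single arrays 4 to 5 members were lower by 2-fold (Atf4 added on array 1) and 8 to 9 by 1.5-fold (Eif2ak3 added on array 2). There the count of higher members at 1.5-fold ranged from 0 to 2, with Vldlr and Pdia6 on array 1, and the member median ranged from -0.336 to -0.228. With Feature Extraction's ratio, the all-gene counts at 2-fold were 941 higher and 866 lower, where the report's setting gave 469 and 414, and 1804 and 1900 at 1.5-fold. Limma and the methods' t-test, run at 2-fold only, measured just the spread between the 2 arrays, which were counted as a technical dye swap. Each passed the same 4 lower members and 0 higher, which is no test of genotype, and 0 of 40875 probes passed the t-test after Benjamini-Hochberg adjustment. Of 217 single member ratios recomputed with both arrays, 8 were counted as moved. This count left out 3 members that also shifted by more than the SD of 0.137. These were Derl3 with an offset of 10 (-0.28 against -0.10), Hsp90b1 with median centring (0.19 against 0.02) and Syvn1 over all probes (-0.15 against -0.30). Canx, Derl3, Hsp90b1, Phgdh and Sel1l, all near 0, changed sign under at least 1 alternative, and the other 26 did not. The cause of these shifts was not tested. No paired analysis was made because the arrays were counted as only 1 replicate of either genotype. Derl3 and other probes near background carry no usable ratio.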

Other observations

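Beyond the members, 220 other genes well above background held a CARE core (TGATGNAA) in their promoter. Of these, 11.8% were lower by at least 1.5-fold in the RNA labeled KO and 7.73% were higher, with a median ratio of -0.05. Over all gene names the shares were 7.17% and 7.04%. Of the 58 other genes with TGATGCAA, 10.3% were lower and 8.62% higher. Of 5 other genes with ERSE, 1 was higher by 1.5-fold and none was lower, and of 4 with ERSE-II none passed either way. These shares have no test.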
